A study of Homo sapiens with 12 samples.

Results

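The nuclear-encoded subunits of mitochondrial respiratory complexes II to V were followed in TIGK cells, a line of human gingival keratinocytes transfected with hTERT, the catalytic subunit of telomerase. The members are the protein-coding genes whose symbols mark them as complex II (SDHA to SDHD), complex III (UQCR genes and CYC1), cytochrome c (CYCS), complex IV (COX4 to COX8 genes), or complex V (ATP5 genes). They are 53 of the 58735 genes in the deposited counts, namely 4 of complex II, 10 of complex III, CYCS, 17 of complex IV, and 21 of complex V. All cells were grown at 48 mM glucose. The control cells received no L-arginine (Arg) and the treated cells 500 μM Arg, each for 24 or 48 h, in a base medium that the study describes as free of Arg. Each of the 4 groups has 3 libraries, replicates A, B, and C, and all come from this single line. Nothing in the labels says whether replicates came from separate cultures. The study describes cells from a flask seeded into plate wells, and 3 replicates for each condition. It does not say whether these were separate experiments, so p-values measure the spread between these libraries only. In the tissue label the cells are gingival, and 10 of 10 keratinocyte markers were above 1 CPM (counts per 1000000 counts of the library) on average, with a summed level of 44102 to 56757 CPM. The summed markers of leukocytes, endothelial cells, and melanocytes reached at most 0.45, 2.13, and 3.06 CPM. Those of fibroblasts came to 29.6 to 102 CPM, with 3 of 6 above 1 CPM on average. Of these, DCN (the proteoglycan decorin) was at 31.7 ± 8.82 CPM in the 24 h controls and 19.5 ± 4.85 CPM with Arg (SD, n = 3). At 48 h DCN was at 66.7 ± 8.28 and 59.4 ± 13.9 CPM. COL1A1 had means of 12.4 CPM without and 12.98 CPM with Arg at 24 h, and 24.4 and 22.6 CPM at 48 h. The means of LUM were 0.797 and 0.848 CPM at 24 h and 1.65 and 1.84 CPM at 48 h. COL1A2, COL3A1, and PDGFRA were under 1 CPM. The part of these markers in the results was not tested.

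Electrons from succinate enter the chain at complex II (succinate dehydrogenase), pass through complex III (the cytochrome bc1 complex) to the small carrier cytochrome c, and reach oxygen at complex IV (cytochrome c oxidase). Complexes III and IV pump protons, and complex V (ATP synthase) uses the proton gradient to make ATP. Complex II is encoded wholly in the nucleus, whereas complexes III, IV, and V also hold subunits encoded by mitochondrial DNA, so their assembly draws on both genomes. Keratinocytes also make ATP by glycolysis.

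The members' counts made up between 0.789% and 0.954% of a library, of 16542243 to 19040964 counts in all. Of the 53 members, 45 were high enough to be tested at both times. The 8 that were not are COX4I2, COX6A2, COX6B2, COX7A1, COX7B2, COX8C, ATP5MGL, and the read-through gene ATP5MF-PTCD1. Control replicate B at 48 h stood apart from replicates A and C. In it 1.55% of counts were of mitochondrially encoded genes, where the other 2 had 0.906% and 0.707%. Its counts also differed more from them, with a chi-square of 20.9 and 23.9 for each degree of freedom, where all other pairs of replicates had 3.66 to 12.5. Counts of calls, summed levels, and log2 fold changes of the members described are therefore given with and without it for Arg versus control at 48 h.

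To describe the transcripts of each complex with and without Arg, the CPM of its members, scaled by the TMM method, were summed in each library. The sums are of RNA and are not scaled by length, so that highly expressed members weigh most. In the 24 h controls, ATP5F1B alone had a mean of 1377 CPM, where the complex V sum had a mean of 4058 CPM. For complex III, the sum was 2058, 1985 and 2109 in the 24 h controls and 1798, 1695 and 1822 with Arg, so the groups did not overlap. The means differ by −13.6%, from 2050 to 1772 CPM. A large part of this was CYC1, whose mean alone went from 658 to 506 CPM. At 48 h the sum was 2084, 1862 and 1963 in the controls and 1828, 1805 and 1692 with Arg, again without overlap, and the difference was −9.9% (−12.3% without control replicate B). The summed level of complex IV was 2009.9, 1863 and 2122 in the 24 h controls against 1811, 1679 and 1825 with Arg, a difference of −11.3%. At 48 h it was 2107, 2027 and 2074 against 1926, 1823 and 1707, a difference of −12.1% (−13.0% without replicate B). Complex V, the highest of the sums, was at 4056, 3923 and 4194 in the 24 h controls and 3865, 3622 and 3795 with Arg, a difference of −7.3%. Its 48 h sums were 4153, 3969.8 and 4008 without Arg and 3921, 3815 and 3658 with it, a difference of −6.1% (−6.9% without replicate B). In complexes III, IV, and V every Arg library was thus below every control library of its time.

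Complex II and cytochrome c did not separate in this way. The summed complex II level was 737, 679 and 704 in the 24 h controls and 688, 675 and 701 with Arg, a difference of −2.6%, and at 48 h 722, 679.6 and 740.3 against 721, 718 and 694, a difference of −0.44% (−2.8% without replicate B). CYCS, the carrier between complexes III and IV, was at 385, 312 and 404 CPM in the 24 h controls and 384, 371 and 361 CPM with Arg. Its 48 h level was 335, 326 and 347 CPM against 334, 352 and 326 CPM. The log2 fold change of CYCS at 48 h was 0.0024, and −0.016 without replicate B. The groups of both overlapped at both times. In bulk RNA, a lower level of a gene per cell and a smaller share of the cells that express it cannot be told apart. No test was made between the complexes, since members of a complex are not replicates.

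**Figure D1:**
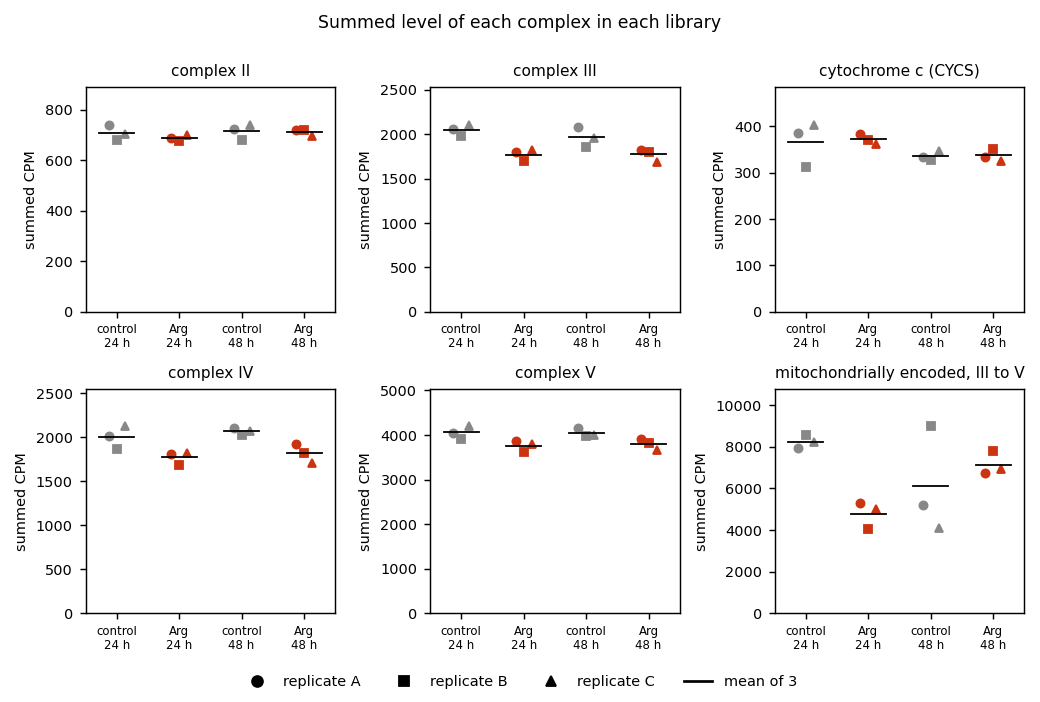
Summed CPM (TMM-scaled) of the members of each complex in each of the 12 libraries, and of the 6 mitochondrially encoded subunits of complexes III to V; symbols are replicates A, B, and C, bars are means of 3, and y axes start at 0. In complexes III, IV, and V each Arg library lies below each control of its time, complex II and CYCS overlap, and in the mitochondrially encoded sum the 48 h control replicate B lies above the other 2 controls.

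Gene by gene, at 24 h 3 of the 45 members fell with Arg at an adjusted p under 0.05 (edgeR's quasi-likelihood test, adjusted over all 14279 genes tested), and 0 rose. These are ATP5PO, CYC1, and COX7B, 1 each in complexes V, III, and IV. Over all genes tested, 3.84% fell and 2.79% rose at this threshold, so that 3 of 45 is close to the background. Without control replicate B at 24 h, 12 members were called lower (6.02% of all genes). Without Arg replicate A 6 were called lower and 1 higher. The share of all genes in that last fit is not given here, so these counts are not read against the background. At an unadjusted p under 0.05, the criterion of the study's methods, 15 members were lower and 1 was higher, where 11.9% and 10.8% of all genes were. The median log2 fold change was −0.14 over the 45 members, against 0.0030 over all genes, and 37 of 45 were negative. In 20 members all 3 Arg libraries were below all 3 controls, where 13.4% of all genes were, and in 0 they were above, where 12.9% of all genes were.

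At 48 h, edgeR called 0 members, and only 0.117% of all 14562 genes tested were called lower and 0.00% higher. DESeq2 called 6 members lower at this time, where it called 1.17% of the genes it adjusted. At an unadjusted p under 0.05 in edgeR's test, 21 members were lower and 1 was higher, where 7.49% and 5.94% of all genes were. The median was −0.14, against 0.0018 over all genes, with 38 of 45 negative. In 17 members all 3 Arg libraries were below all 3 controls, where 8.51% of all genes were, and in SDHC and ATP5IF1 they were above, where 8.56% of all genes were. Without control replicate B, 19 members were called lower and 2 higher at 48 h, where 8.17% and 7.76% of all genes were. Of these 19, 5 are in complex III, 7 in complex IV, and 7 in complex V, and 0 are in complex II. Then 25 were lower and 3 higher at an unadjusted p under 0.05, where 14.6% and 14.7% of all genes were. The median over the 45 members was then −0.18, with 37 negative. The 2 called higher are ATP5IF1 and COX7A2L. In control replicate B, 23 of the 45 members were above the range of the 48 h Arg libraries, 16 within it, and 6 below it. These counts were 32, 6, and 7 in control replicate A and 26, 15, and 4 in control replicate C. They are counts over members, and the shares over all genes are not given here.

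The 24 h and 48 h comparisons share no library, so that each member was measured in separate samples. Of the 45 members, 37 had a negative log2 fold change at both times, a share of 82.2%, against 33.5% of the 13996 genes tested at both. The 7 that were positive at both are SDHC, UQCR10, CYCS, COX7A2L, ATP5MC1, ATP5S, and ATP5IF1, and SDHD changed sign. Without the 48 h control replicate B, 35 of 45 were negative at both times, against 33.4% of all genes. The unadjusted p was under 0.05 with a lower level at both times in 12 members (3.92% of all genes), and in 14 without the 48 h control replicate B (6.40% of all genes). These are UQCRH, UQCR11, and CYC1 of complex III, COX4I1, COX5B, COX7A2, COX7B, and COX7C of complex IV, and ATP5F1A, ATP5MD, ATP5ME, and ATP5PO of complex V. Arg and control libraries did not overlap at either time, with Arg lower, in 11 members (2.79% of all genes). Over the 45 members, the log2 fold changes at the 2 times had a Spearman correlation of 0.72, against 0.43 over all genes. This is a description across genes, which share libraries and depth within a time. In the test of the difference between the times (edgeR, interaction over 12 libraries), 0 of the 45 members were called, 0 had an unadjusted p under 0.05, and DESeq2 called 0 of the members (0.196% of the genes it adjusted were called lower and 0.147% higher). Over all 15148 genes the test called 0.00% lower and 0.0132% higher, and 3.80% and 3.06% had an unadjusted p under 0.05.

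**Figure D2:**
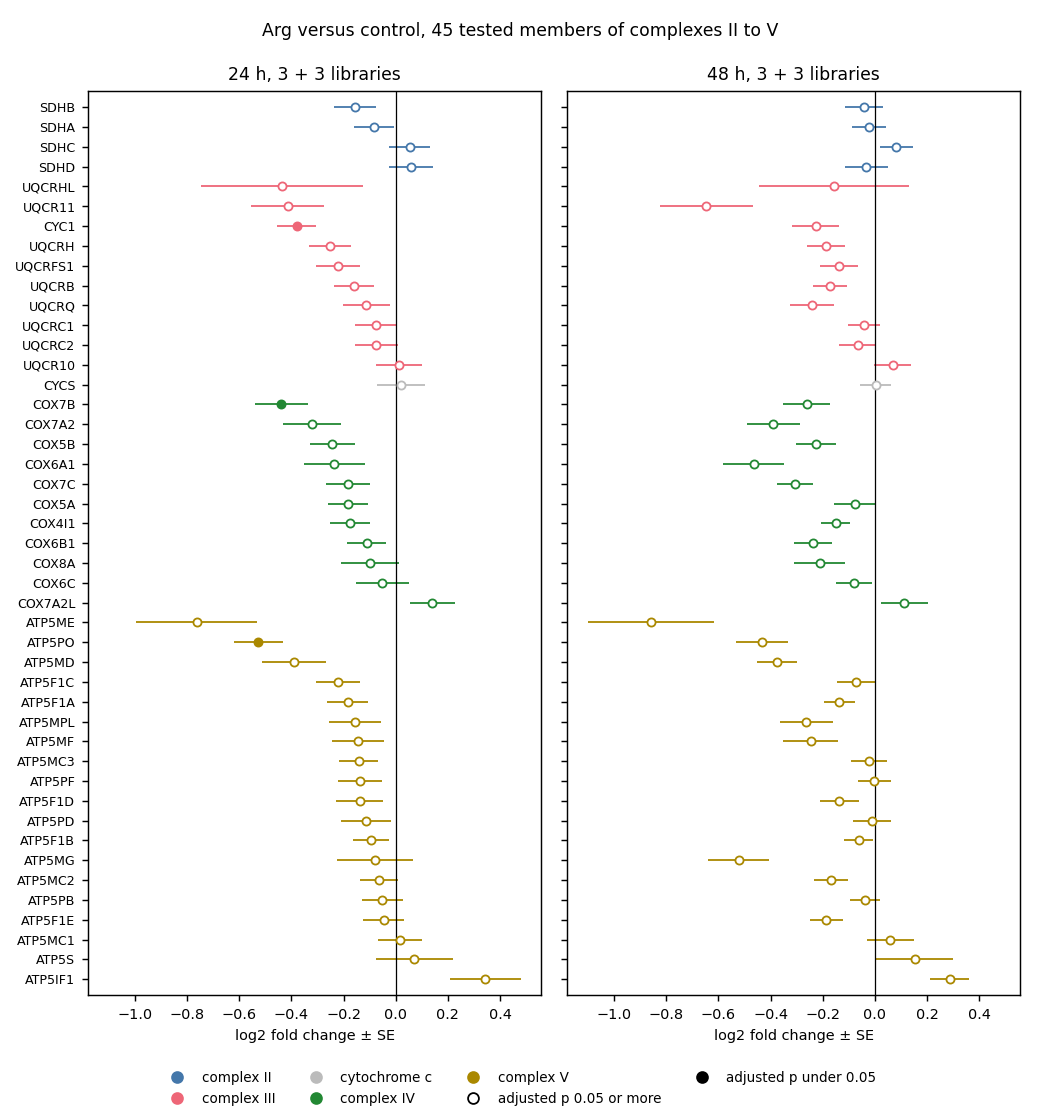
Log2 fold change with its standard error (edgeR) of Arg versus control for the 45 tested members at 24 h (left) and 48 h (right), in the order of complex and of the 24 h value; filled points passed an adjusted p under 0.05. Filled points are ATP5PO, CYC1, and COX7B at 24 h, most points of complexes III, IV, and V lie left of 0 at both times, and ATP5IF1 lies on the right.

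In complex II, the median log2 fold change of the 4 members was −0.015 at 24 h and −0.027 at 48 h, and 0 of 4 were called or had an unadjusted p under 0.05 at either time. SDHA, the flavoprotein that oxidizes succinate, was at 248, 231 and 227 CPM in the 24 h controls and 209, 226 and 232 CPM with Arg. Its 48 h levels were 266, 242 and 271 CPM without and 245, 261 and 262 CPM with Arg, and the log2 fold changes were −0.083 (SE 0.077) and −0.022 (SE 0.064). SDHB, the iron-sulfur subunit, was at 187, 166 and 169 CPM in the 24 h controls and 165, 153 and 152 CPM with Arg. It was the only complex II member whose Arg libraries were all below the controls at 24 h, with a log2 fold change of −0.16 (SE 0.08, unadjusted p = 0.0701). Its 48 h level was 157, 137 and 164 CPM against 148, 148 and 149 CPM, and the groups overlapped, with a log2 fold change of −0.042 (SE 0.072). SDHC and SDHD anchor the complex in the inner membrane. SDHC was at 139, 136 and 134 CPM in the 24 h controls and 138, 139 and 148 CPM with Arg, and at 133, 128 and 131 CPM and 144, 138 and 135 CPM at 48 h. Its log2 fold changes were 0.053 (SE 0.077) and 0.082 (SE 0.062), and only at 48 h did the groups separate, with the Arg libraries above. SDHD was at 163, 145 and 173 CPM against 176, 156 and 169.5 CPM at 24 h and 166, 172 and 174 CPM against 184, 171 and 147 CPM at 48 h, with log2 fold changes of 0.059 (SE 0.086) and −0.032 (SE 0.081). The SDHD gene overlaps TIMM8B on the opposite strand, whose counts come to 65.9% of its own, and since the strand setting of the counting is not given in the sources used here, its values are uncertain. Without the 48 h control replicate B, the log2 fold changes of the 4 members at 48 h were between −0.11 (SDHB) and 0.068 (SDHC), and 0 were called.

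In complex III, of the 10 members, 9 had a negative log2 fold change at each time, with medians of −0.19 and −0.17. The unadjusted p was under 0.05 with a lower level in 4 of 10 at 24 h and 5 at 48 h, where 11.9% and 7.49% of all genes were, and without control replicate B 6 at 48 h, where 14.6% were. CYC1, cytochrome c1, which passes electrons from the Rieske protein to cytochrome c, was at 659, 627 and 688 CPM in the 24 h controls and 497, 489 and 532 CPM with Arg. It fell at 24 h, with a log2 fold change of −0.38 (SE 0.074, adjusted p = 0.00509), and the groups stood far apart. It was called at 24 h under each of the 10 alternatives with all libraries and each of the 6 that left out a library, with adjusted p-values between 1.05e-05 and 0.037. At 48 h it was at 591, 444 and 557 CPM against 472, 453 and 436 CPM, where control replicate B lay within the Arg range. The log2 fold change at 48 h was −0.23 (SE 0.091, unadjusted p = 0.0270, adjusted p = 0.308), and without replicate B it was −0.34 (SE 0.055, adjusted p = 1.69e-04). UQCRFS1, the Rieske iron-sulfur protein, had log2 fold changes of −0.22 (SE 0.083, unadjusted p = 0.0155) and −0.14 (SE 0.072, unadjusted p = 0.0816). The core proteins UQCRC1 and UQCRC2, which face the matrix, had values of −0.077 and −0.075 at 24 h and −0.042 and −0.067 at 48 h, with overlapping groups.

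Among the small subunits of complex III, UQCR11 had the widest log2 fold change at 48 h. It was at 17.1, 13.8 and 18.1 CPM in the 24 h controls and 12.1, 12.5 and 12.1 CPM with Arg, and at 16.7, 11.6 and 12.9 CPM and 9.91, 7.08 and 9.33 CPM at 48 h. The groups did not overlap at either time, and the log2 fold changes were −0.41 (SE 0.14, unadjusted p = 0.00880, adjusted p = 0.0868) and −0.65 (SE 0.18, unadjusted p = 0.00331, adjusted p = 0.177). Without the 48 h control replicate B, UQCR11 was called lower, at −0.75 (SE 0.16, adjusted p = 0.00256). UQCRH, the acidic hinge protein that contacts cytochrome c1, was at 233, 204 and 237 CPM in the 24 h controls and 197, 183 and 186 CPM with Arg. It had a log2 fold change of −0.25 (SE 0.081, unadjusted p = 0.00648), and −0.19 (SE 0.073, unadjusted p = 0.0247) at 48 h, where the levels were 241, 207 and 231 CPM and 207, 205 and 187 CPM. UQCRH thus did not overlap between the groups at either time and was not called in either. The margin at 48 h was narrow, with control replicate B at 207.2 CPM and Arg replicate A at 206.6 CPM. UQCRB was at 226, 205 and 229 CPM against 196, 196 and 199 CPM at 24 h, and at 257, 242 and 243 CPM against 231, 221 and 207 CPM at 48 h, again without overlap. Its log2 fold changes were −0.16 (SE 0.077, unadjusted p = 0.0509) and −0.17 (SE 0.065, unadjusted p = 0.0205). UQCRQ overlapped at 24 h, with 173, 166 and 196 CPM against 182, 149 and 164 CPM, and separated at 48 h, with 201, 210.3 and 183 CPM against 181, 174 and 149 CPM. The log2 fold changes of UQCRQ were −0.11 (SE 0.091, unadjusted p = 0.231) and −0.24 (SE 0.083, unadjusted p = 0.0130). UQCR10 went the other way, at 0.012 and 0.068, with overlapping groups. With control replicate B left out at 48 h, UQCRH, UQCRB, and UQCRFS1 were called lower, at −0.25 (SE 0.06, adjusted p = 0.00655), −0.19 (SE 0.06, adjusted p = 0.0386), and −0.19 (SE 0.063, adjusted p = 0.0483). The value of UQCRQ was then −0.19 (SE 0.072, adjusted p = 0.0708), and UQCRC1, UQCRC2, and UQCR10 were at −0.033, −0.064, and 0.087. UQCRHL, a gene near-identical to UQCRH in its product, was tested at only 1.26 ± 0.226 CPM per kb in the 24 h controls, and reads may be split between them.

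In complex IV, of the 11 tested members, 10 had a negative log2 fold change at each time, with medians of −0.18 and −0.23, the lowest of the medians of complexes II to V at 48 h. Lower at an unadjusted p under 0.05 were 6 of 11 members at 24 h (11.9% of all genes) and 7 at 48 h (7.49%), or 9 at 48 h without control replicate B (14.6%). COX7B, a small transmembrane subunit, was at 120.0, 120.1 and 131 CPM in the 24 h controls and 107, 79.1 and 87.7 CPM with Arg, and it fell by 0.44 on the log2 scale (SE 0.10, adjusted p = 0.014). The call was lost when control replicate C, Arg replicate B, or Arg replicate C at 24 h was left out, with adjusted p-values of 0.063, 0.096, and 0.079. At 48 h COX7B was at 133, 129 and 110.5 CPM against 109.9, 109 and 92.2 CPM, apart by a margin of under 1 CPM, and had a log2 fold change of −0.26 (SE 0.091, unadjusted p = 0.0133, adjusted p = 0.243). Without control replicate B the 48 h value was −0.23 (SE 0.081, adjusted p = 0.0536).

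COX7A2, the liver-type isoform of subunit 7a, was at 125, 119 and 149.7 CPM in the 24 h controls and 119, 86.7 and 110.0 CPM with Arg. Its 48 h level was 143, 131 and 126 CPM and 118, 102 and 86.1 CPM. Its groups did not overlap at either time, and the log2 fold changes were −0.32 (SE 0.11, unadjusted p = 0.00993, adjusted p = 0.0927) and −0.39 (SE 0.10, unadjusted p = 0.00234, adjusted p = 0.168). The margin at 24 h was narrow, with control replicate B at 119.3 CPM and Arg replicate A at 119.0 CPM. COX5B, which binds zinc at the matrix side, was at 174, 159 and 184 CPM against 135, 144 and 158 CPM at 24 h and at 186, 172 and 192 CPM against 172, 154 and 145 CPM at 48 h. The groups of COX5B were apart at both times, at −0.24 (SE 0.086, unadjusted p = 0.0115) and −0.23 (SE 0.076, unadjusted p = 0.0113). Their margins were narrow, with control replicate B at 158.6 CPM against Arg replicate C at 158.4 CPM at 24 h. At 48 h control replicate B was at 172.4 CPM and Arg replicate A at 171.7 CPM. COX6A1 was at 70.7, 55.2 and 82.4 CPM in the 24 h controls and 62.5, 57.6 and 57.0 CPM with Arg, where control replicate B lay below all Arg libraries. At 48 h COX6A1 was at 74.8, 63.4 and 73.8 CPM against 62.0, 47.0 and 44.6 CPM, with no overlap. Its log2 fold changes were −0.24 (SE 0.12, unadjusted p = 0.0601) and −0.47 (SE 0.12, unadjusted p = 0.00187, adjusted p = 0.157). COX7C was at 189.9, 165 and 186 CPM against 172, 151 and 153 CPM at 24 h and 197, 207 and 216 CPM against 179, 165 and 158 CPM at 48 h. Its groups overlapped only at 24 h, and the log2 fold changes were −0.18 (SE 0.085, unadjusted p = 0.0440) and −0.31 (SE 0.069, unadjusted p = 7.47e-04, adjusted p = 0.134). Without the 48 h control replicate B, COX7A2, COX6A1, and COX7C were called lower at 48 h, at −0.40 (SE 0.09, adjusted p = 0.00369), −0.53 (SE 0.099, adjusted p = 6.41e-04), and −0.30 (SE 0.064, adjusted p = 0.00211).

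COX4I1, the ubiquitous isoform of subunit 4, had log2 fold changes of −0.18 (SE 0.075, unadjusted p = 0.0323) and −0.15 (SE 0.056, unadjusted p = 0.0185), COX5A −0.18 (SE 0.076, unadjusted p = 0.0273) and −0.076 (SE 0.081, unadjusted p = 0.369), and COX6B1 −0.11 (SE 0.076, unadjusted p = 0.159) and −0.24 (SE 0.073, unadjusted p = 0.00680). COX8A had −0.10 (SE 0.11, unadjusted p = 0.385) and −0.21 (SE 0.099, unadjusted p = 0.0519). COX6C had −0.051 (SE 0.10) and −0.081 (SE 0.07), with overlapping groups. COX4I1, COX5B, COX6B1, and COX8A were called lower at 48 h when control replicate B was left out, at −0.16 (SE 0.053, adjusted p = 0.0445), −0.27 (SE 0.067, adjusted p = 0.00765), −0.23 (SE 0.067, adjusted p = 0.0222), and −0.28 (SE 0.082, adjusted p = 0.0228). COX5A was then at −0.17 (SE 0.057, adjusted p = 0.0503) and COX6C at −0.075 (SE 0.066). COX6C overlaps VPS13B (23.1% of its own counts) and COX4I1 overlaps EMC8 (17.2%) on the opposite strand. The exception in sign was COX7A2L, which is known for its part in joining complexes III and IV into supercomplexes. It was at 85.1, 92.1 and 96.7 CPM in the 24 h controls and 109, 95.6 and 97.3 CPM with Arg, and at 84.2, 105 and 83.8 CPM and 99.4, 102 and 93.7 CPM at 48 h. The highest of these 48 h values was control replicate B, so the log2 fold change at 48 h was 0.11 (SE 0.09, unadjusted p = 0.234) with it and 0.23 (SE 0.066, adjusted p = 0.0204) without it. NDUFA4, a subunit of complex IV whose symbol lies outside the rule, fell at 24 h at −0.30 (SE 0.087, adjusted p = 0.0481) and had −0.22 (SE 0.076, unadjusted p = 0.0124, adjusted p = 0.241) at 48 h. Without control replicate B, NDUFA4 was called lower at 48 h, at −0.26 (SE 0.068, adjusted p = 0.0115).

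In complex V, of the 19 tested members, 16 had a negative log2 fold change at each time, with a median of −0.14 at both. At an unadjusted p under 0.05, 5 of 19 were lower and 1 was higher at 24 h, where 11.9% and 10.8% of all genes were. At 48 h 9 were lower and 1 was higher, where 7.49% and 5.94% of all genes were, and without control replicate B 10 and 2, where 14.6% and 14.7% were. ATP5PO, the OSCP subunit that joins the peripheral stalk to the F1 head, was at 55.8, 49.6 and 51.3 CPM in the 24 h controls and 38.7, 35.3 and 34.9 CPM with Arg. It fell by 0.53 on the log2 scale (SE 0.09, adjusted p = 0.0029), which is −30.6%, and had the smallest p of the 45 members at 24 h. Its 48 h level was 55.8, 47.3 and 48.4 CPM against 41.7, 35.6 and 34.9 CPM, so that all 6 controls of both times lay above all 6 Arg libraries. The log2 fold change at 48 h was −0.43 (SE 0.099, unadjusted p = 8.57e-04, adjusted p = 0.134), and without control replicate B it was −0.48 (SE 0.092, adjusted p = 9.65e-04). ATP5PO was called at 24 h under each of the 10 alternatives with all libraries and each of the 6 that left out a library. The gene overlaps the noncoding LINC00649 on the opposite strand, whose counts come to 46.5% of its own, which makes its level uncertain. The other 3 stalk genes, ATP5PB, ATP5PD, and ATP5PF, had log2 fold changes between −0.14 and −0.051 at 24 h and between −0.038 and −0.0017 at 48 h, with overlapping groups. Without control replicate B their 48 h values were −0.038, 0.034, and 0.0089. These overlap WDR77, KCTD2, and GABPA on the opposite strand, whose counts come to 25.5%, 33.8%, and 47.8% of theirs.

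The small membrane subunits ATP5MD, ATP5ME, ATP5MF, ATP5MG, and ATP5MPL, which sit in the membrane part of the enzyme, were negative at both times, 5 of 5. At 48 h 5 of 5 were lower at an unadjusted p under 0.05, where 7.49% of all genes were, with a median log2 fold change of −0.38. At 24 h 2 of 5 were, where 11.9% of all genes were, with a median of −0.16. Without control replicate B, 5 of 5 were lower at 48 h, where 14.6% of all genes were, with a median of −0.39. ATP5MD (also ATP5MK or DAPIT) was at 130.2, 98.9 and 134 CPM in the 24 h controls and 110.3, 79.2 and 88.0 CPM with Arg, where replicate A of the Arg group lay above control replicate B. Its 48 h level was 120.1, 108 and 114 CPM and 91.6, 91.9 and 79.9 CPM, without overlap. The log2 fold changes of ATP5MD were −0.39 (SE 0.12, unadjusted p = 0.00530, adjusted p = 0.0653) and −0.38 (SE 0.077, unadjusted p = 3.42e-04, adjusted p = 0.118), the latter with the smallest p of the 45 members at 48 h, and without control replicate B −0.41 (SE 0.07, adjusted p = 2.63e-04). ATP5MG, subunit g, was at 52.3, 41.7 and 53.9 CPM in the 24 h controls and 60.7, 36.8 and 42.5 CPM with Arg, in overlapping ranges. At 48 h it was at 58.1, 70.1 and 51.1 CPM against 45.6, 41.9 and 37.4 CPM, and control replicate B was the highest. Its log2 fold changes were −0.081 (SE 0.15, unadjusted p = 0.589) and −0.52 (SE 0.12, unadjusted p = 6.80e-04, adjusted p = 0.133), and −0.39 (SE 0.09, adjusted p = 0.00423) at 48 h without that library. The difference between the times had the smallest p of the members, at −0.44 (SE 0.21, unadjusted p = 0.0513, adjusted p = 0.726), and was not called. ATP5ME, subunit e, was at only 6.18, 6.04 and 8.17 CPM against 5.28, 3.61 and 3.12 CPM at 24 h and at 10.4, 9.54 and 5.68 CPM against 5.74, 4.23 and 4.15 CPM at 48 h. Only at 48 h did its groups overlap. It had the widest log2 fold changes of the members, −0.76 (SE 0.23, unadjusted p = 0.00404) and −0.86 (SE 0.24, unadjusted p = 0.00390), with the largest standard errors of complex V. Leaving out the 48 h control replicate B, ATP5ME was called lower at 48 h, at −0.77 (SE 0.24, adjusted p = 0.0276), and ATP5MF and ATP5MPL were at −0.22 (SE 0.093, adjusted p = 0.117) and −0.18 (SE 0.083, adjusted p = 0.160). On the opposite strand, ATP5MF overlaps CPSF4 (42.9% of its own counts), ATP5ME overlaps MYL5 (26.8%), and ATP5MD overlaps TAF5 (18.9%).

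In the catalytic F1 head, 5 of 5 members were negative at both times. ATP5F1A and ATP5F1B, the alpha and beta subunits that form the catalytic sites, had log2 fold changes of −0.19 (SE 0.078, unadjusted p = 0.0285) and −0.095 (SE 0.071, unadjusted p = 0.194) at 24 h and −0.14 (SE 0.058, unadjusted p = 0.0357) and −0.063 (SE 0.055, unadjusted p = 0.277) at 48 h. ATP5F1E, the epsilon subunit, was at 276, 257 and 304 CPM against 271, 272 and 268 CPM at 24 h, and at 318, 299 and 285 CPM against 272, 262 and 261 CPM at 48 h. Its groups overlapped at 24 h and separated at 48 h, at −0.046 (SE 0.079) and −0.19 (SE 0.063, unadjusted p = 0.0116), and the difference between the times was −0.14 (SE 0.10, unadjusted p = 0.179). The 3 genes ATP5MC1, ATP5MC2, and ATP5MC3 encode an identical mature c subunit, the ring of the rotor. ATP5MC1 was at 0.016 and 0.059, ATP5MC2 at −0.065 and −0.17 (unadjusted p = 0.0243 at 48 h), and ATP5MC3 at −0.14 and −0.024. ATP5F1A, ATP5F1E, and ATP5MC2 were called lower at 48 h once control replicate B was left out, at −0.17 (SE 0.052, adjusted p = 0.0279), −0.19 (SE 0.059, adjusted p = 0.0311), and −0.18 (SE 0.061, adjusted p = 0.0430), and ATP5F1B, ATP5MC1, and ATP5MC3 were at −0.094, 0.17, and −0.063.

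ATP5IF1 was the member with the highest positive log2 fold change at each time. It encodes the inhibitory factor that binds the F1 head and blocks ATP hydrolysis when the proton gradient is lost, and is not a structural part of the enzyme. It was at 75.1, 59.5 and 77.2 CPM in the 24 h controls and 66.6, 99.1 and 103 CPM with Arg, where replicate A of the Arg group lay within the control range. At 48 h it was at 89.2, 90.4 and 92.7 CPM in the controls and 121, 109 and 103 CPM with Arg, and the groups did not overlap. The log2 fold changes were 0.34 (SE 0.14, unadjusted p = 0.0213, adjusted p = 0.139) and 0.29 (SE 0.075, unadjusted p = 0.00221, adjusted p = 0.163), and without the 48 h control replicate B 0.29 (SE 0.072, adjusted p = 0.00769).

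**Figure D3:**
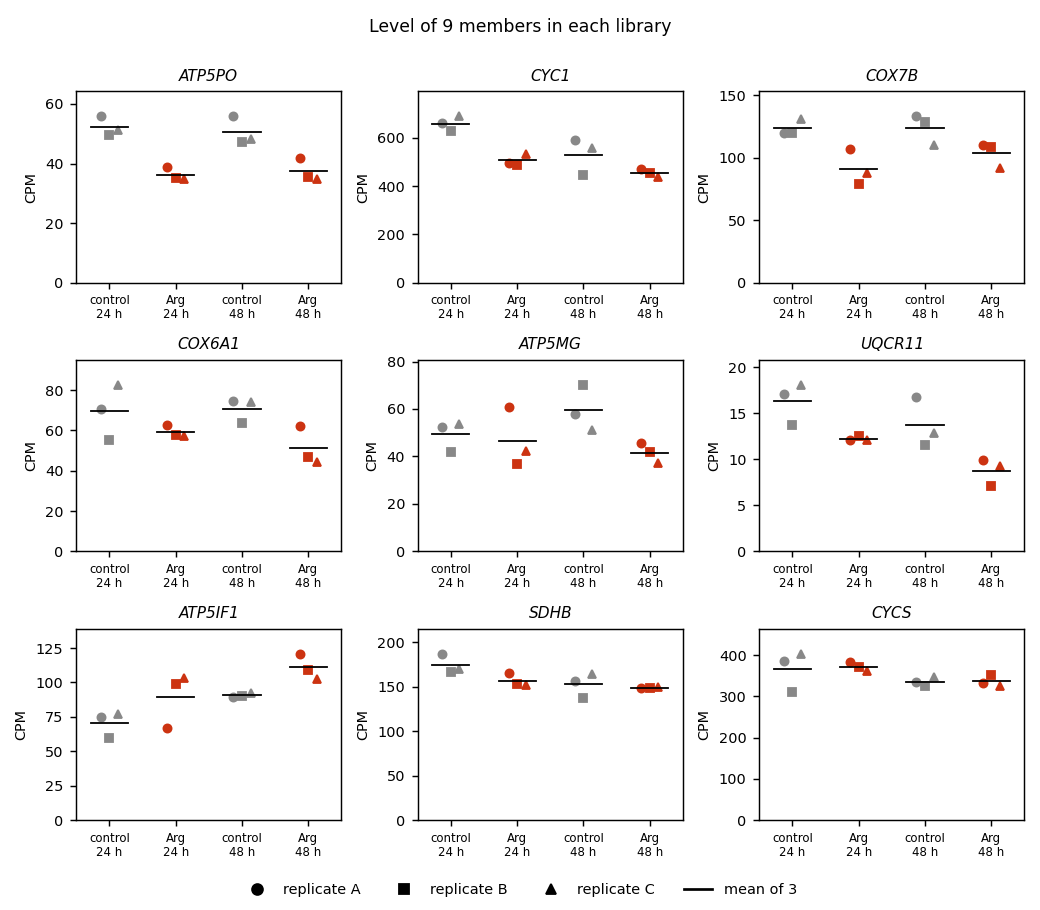
CPM (TMM-scaled) of 9 members in each library; symbols are replicates A, B, and C, gray is control and red is Arg, bars are means of 3, and y axes start at 0. ATP5PO is lower in all 6 Arg libraries than in all 6 controls, CYC1 and COX7B are lower in each Arg library than in each control at 24 h, ATP5IF1 is higher in every Arg library at 48 h, and CYCS overlaps.

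Members can also be ordered by level, as CPM per kb of exonic length in the 24 h controls (mean ± SD, n = 3). ATP5F1B was first at 593 ± 6.54, followed by CYC1 at 333 ± 15.5 and COX8A at 221 ± 34.4. COX8A and COX6B1, at 182 ± 6.42, were within their spread of each other. The highest member of complex II was SDHB at 70.8 ± 4.51 and the lowest SDHC at 9.63 ± 0.190, whose exonic length of 14160 bases is the largest of the tested members. The lowest tested members were UQCRHL, ATP5ME at 7.23 ± 1.27, and ATP5S at 0.945 ± 0.0175. ATP5S (also DMAC2L) is a factor that the rule takes in by its older symbol. The order depends on the length that is used: divided by the length of the canonical GENCODE v44 transcript, an alternative chosen after seeing the data, COX4I1 was first at 809 CPM per kb and ATP5F1B second at 783.

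Among the paralogs, the tissue-restricted isoforms had 0 to 43 counts in the 12 libraries together, whereas COX7A2 with COX7A2L, and ATP5MC1 with ATP5MC2 and ATP5MC3, were all at tested levels. COX4I1 was at 129 ± 5.14 CPM per kb, and COX4I2, an isoform best known from lung, had 0 counts in each of the 12 libraries. COX6A1 was at 51.7 ± 10.2 and its heart and muscle isoform COX6A2 had 14 counts in all libraries together. COX7A2 was at 68.4 ± 8.36, COX7A2L at 16.3 ± 1.05, and the muscle isoform COX7A1 had 23 counts in all. COX6B1 stood against COX6B2, a testis isoform with 43 counts in all, COX7B at 40.9 ± 2.03 against COX7B2 with 0, and COX8A against COX8C with 0. ATP5MC3 at 49.7 ± 2.19 and ATP5MC2 at 44.9 ± 1.01 lay above ATP5MC1 at 33.0 ± 1.87. By the canonical length the order was another, with ATP5MC2 at 284, ATP5MC1 at 133, and ATP5MC3 at 130 CPM per kb. ATP5MGL had 0 counts and ATP5MF-PTCD1 had 2. A count of 0 in a library of this depth says that the transcript was not detectable here. Pseudogenes named for 29 of the members had counts that came to 0.274% of the members' own in all. The highest shares were 7.86% for UQCRFS1, 3.87% for SDHA, and 1.40% for COX6A1, whose levels are less certain for this.

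**Figure D4:**
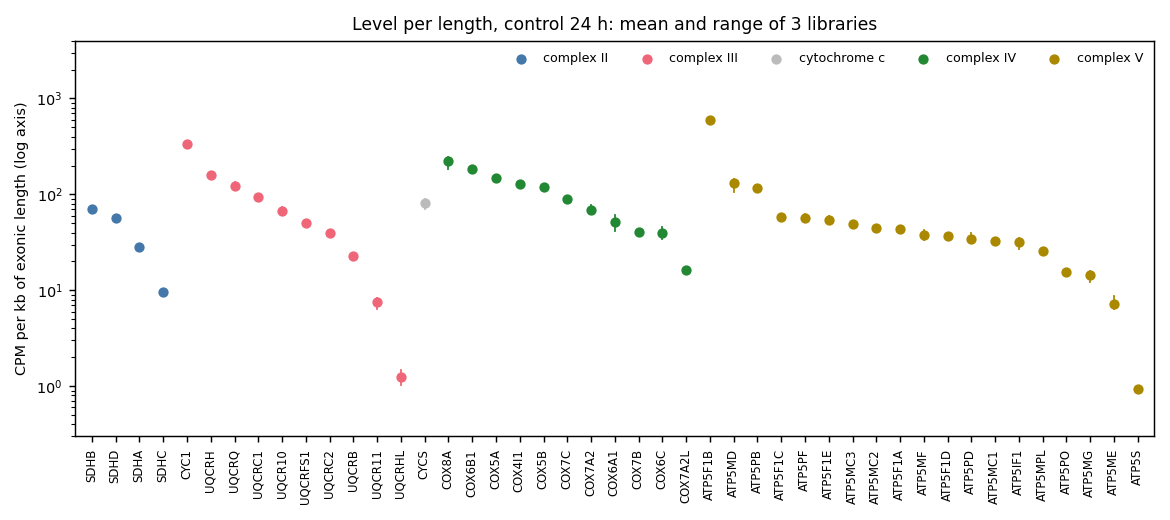
CPM per kb of exonic length of the 45 tested members in the 24 h controls on a log axis, ordered within each complex; points are means and vertical lines the range of 3 libraries. The points run from 593 for ATP5F1B to 0.945 for ATP5S.

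Because most members of complexes III to V had a negative log2 fold change at both times, the members' promoters were searched for letters of known motifs. Promoters of nuclear respiratory genes often hold sites for NRF1 and for ETS-family factors such as GABP, which are activators of this gene set. RefSeq promoters (GRCh38.p14, 250 bases before to 50 after the start) were found for 39 of the 53 members. The NRF1 letters, GCGC and TGCGC with any 1 base between them, on either strand, were in 11 of 39 (28.2%), against 8.58% of 15843 protein-coding promoters. The ETS letters CCGGAAG, on either strand, were in 15 of 39 (38.5%), against 14.2%. The YY1 letters AAGATGGCG were in 3 (7.69%, against 2.74%) and the SP1 letters GGGCGG in 22 (56.4%, against 58.5%). By complex, the NRF1 letters were in 2 of 3 promoters of complex II, 4 of 7 of complex III, 1 of 14 of complex IV (COX8C, which had 0 counts), and 4 of 14 of complex V. The promoters of COX7B and CYCS held neither the NRF1 nor the ETS letters. The ETS letters were in 2 of 3 promoters of complex II, 3 of 7 of complex III, 5 of 14 of complex IV, and 5 of 14 of complex V. No promoter was found for CYC1. The part of these letters in the members' result was not tested. A match of letters is a description and not a measured site.

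The stretches below, of 30 bases on the gene's strand, are shown to let the matches be read in members described above, 1 or more from each of complexes II to V. Capitals mark the NRF1 letters in the first 4 and the ETS letters in the last 4, on either strand.
ATP5PO: acgccaacgcGCGCGTGCGCccttgcgcgt
UQCR11: ccctccccgcGCGCGTGCGCgccgcggccg
UQCRFS1: gcgcctcctcGCGCCTGCGCcgtggttgga
SDHA: ccggcgtggtGCGCAGGCGCggtatccccc
UQCRH: agtgtgccgcaCTTCCGGccagatcgccgg
UQCRQ: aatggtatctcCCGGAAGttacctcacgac
COX5B: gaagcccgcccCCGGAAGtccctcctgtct
COX6A1: attttccacttccgCTTCCGGcgctgcggc

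In GRCh38.p14 these lie at chr21:33915809-33915838 (ATP5PO, minus strand), chr19:1605472-1605501 (UQCR11, minus), chr19:29213163-29213192 (UQCRFS1, minus), chr5:218242-218271 (SDHA, plus), chr1:46303641-46303670 (UQCRH, plus), chr5:132866577-132866606 (UQCRQ, plus), chr2:97646014-97646043 (COX5B, plus), and chr12:120438083-120438112 (COX6A1, plus). The first capital base is 24, 29, 31, and 68 bases before the RefSeq start in the first 4 and 46, 54, 37, and 16 bases before it in the last 4. The SDHA promoter held 4 matches to the NRF1 letters, and UQCR11 held 2. In the GENCODE v44 annotation, the stretches of UQCRFS1, SDHA, UQCRH, and COX5B overlap no exon. That of ATP5PO lies wholly in exons of longer ATP5PO transcripts and of a read-through gene. Of the COX6A1 stretch 23 bases, and of the UQCR11 stretch 2, lie in an exon of the gene itself. Of the UQCRQ stretch 8 bases lie in an exon of GDF9 on the opposite strand. In the gene bounds deposited with the counts, the stretches of UQCRFS1, SDHA, UQCRH, and UQCRQ lie within the gene. Those of COX5B and UQCR11 reach into it.

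The other genes of the pathway were taken from lists by function. The 6 mitochondrially encoded subunits of complexes III to V were all lower with Arg at 24 h, with a median log2 fold change of −0.74. Of these, 5 of 6 fell at an adjusted p under 0.05, where 3.84% of all genes did. MT-CO2, a catalytic subunit of complex IV, changed most, at −0.85 (SE 0.088, adjusted p = 1.37e-05). At 48 h 6 of 6 had a positive log2 fold change, with a median of 0.25, and 0 were called by edgeR or had an unadjusted p under 0.05. Their summed level at 48 h was 5221, 8974, and 4121 CPM in control replicates A, B, and C and 6736, 7777, and 6915 CPM with Arg, a difference of 17.0% between the means. Replicate B was the highest of the 6. Without it every Arg library was above both controls, with a difference of 52.9%, and 6 of 6 were called higher, with a median of 0.64, where 7.76% of all genes were called higher. In the test of the difference between the times, over 12 libraries, 0 of 6 were called. At an unadjusted p under 0.05, 5 of 6 were higher, where 3.06% of all genes were. The median of the nuclear-encoded members was negative at both times. With the mitochondrially encoded genes left out of the fit, the log2 fold changes of ATP5PO, CYC1, and COX7B at 24 h were −0.53, −0.38, and −0.44. The part of the mitochondrially encoded counts in the members' result was not tested.

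Of 35 assembly factors of complexes II to V, 31 were tested at 24 h and 32 at 48 h, and edgeR called 0 at either time. At an unadjusted p under 0.05, 3 were lower and 2 higher at 24 h (9.68% and 6.45%), shares under those of all genes (11.9% and 10.8%). At 48 h 6 were lower and 4 higher (18.8% and 12.5%, against 7.49% and 5.94% of all genes). In the fit without the 48 h control replicate B, 33 were tested and 8 were called lower and 4 higher, where 8.17% and 7.76% of all genes were. COX17, the copper chaperone of complex IV, was at −0.37 (SE 0.13, unadjusted p = 0.0102) and COX19 at 0.31 (SE 0.11, unadjusted p = 0.0143) at 24 h. Of 10 transcriptional regulators of nuclear respiratory genes, 9 were tested at 24 h and 10 at 48 h, and 0 were called. At an unadjusted p under 0.05, 1 was lower and 1 higher at each time. Of all genes, 11.9% were lower and 10.8% higher at 24 h, and 7.49% and 5.94% at 48 h. The regulators at 24 h were ESRRA at −0.26 (SE 0.11, unadjusted p = 0.0270) and GABPB1 at 0.28 (SE 0.10, unadjusted p = 0.0133). NRF1 itself was at 0.017 (SE 0.10, unadjusted p = 0.870) at 24 h and 0.16 (SE 0.10, unadjusted p = 0.155) at 48 h. In the same fit without replicate B, ESRRA was called lower, at −0.43 (SE 0.066, adjusted p = 9.11e-05), PPARGC1B was called higher, at 0.58 (SE 0.11, adjusted p = 7.14e-04), and NRF1 was at 0.16 (SE 0.11).

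The members have shorter exonic lengths than other genes, with a median of 2615 bases against 4787 over the genes tested at 24 h. Across the 45 members, shorter genes had the more negative log2 fold changes, with a Spearman correlation of length and log2 fold change of 0.41 at 24 h and 0.44 at 48 h, against 0.049 and 0.16 over all genes. With a correction for length in each library, the members' median was −0.11 at both times, and 5 were called lower at 24 h (4.29% of all genes) and 0 at 48 h (0.124%). These are descriptions across genes, and the part of length in the result was not tested further.

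Time in culture was compared in the same way. Between 24 and 48 h without Arg, edgeR called 1 member lower and 2 higher of 45, where 19.9% of all 14449 genes tested were called in either direction, so that the members' share was under the background. COX6C and ATP5IF1 rose, at 0.34 (SE 0.099, adjusted p = 0.0331) and 0.37 (SE 0.099, adjusted p = 0.0242), and CYC1 fell, at −0.31 (SE 0.097, adjusted p = 0.0430). Without the 48 h control replicate B, the CYC1 value was −0.20 (SE 0.071, adjusted p = 0.0744) and its call was lost, whereas COX6C and ATP5IF1 kept theirs, with adjusted p-values of 0.040 and 0.027. Without control replicate A at 24 h, 0 were called in either direction, and without control replicate A or C at 48 h 0 were called higher. For fits without replicate A or C, the share of all genes is not given here. Those counts are thus not read against the background. The comparisons of time without Arg use the same control libraries as those of Arg above.

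With Arg, 2 members were called lower and 4 higher between 24 and 48 h, where 28.3% of all 14398 genes were called in either direction. COX6C, which was at 109.7, 115 and 126 CPM at 24 h and 154, 146 and 133 CPM at 48 h with Arg, rose again, at 0.31 (SE 0.077, adjusted p = 0.00586). UQCR10, at 65.9, 66.7 and 65.6 CPM and 78.2, 82.7 and 74.4 CPM, rose at 0.25 (SE 0.076, adjusted p = 0.0190). ATP5MC1 rose at 0.24 (SE 0.074, adjusted p = 0.0210) and SDHA at 0.20 (SE 0.067, adjusted p = 0.0282). UQCR11 fell at −0.48 (SE 0.15, adjusted p = 0.0252), and ATP5F1D, the delta subunit of the F1 head, fell at −0.24 (SE 0.081, adjusted p = 0.0341), from 68.2, 79.2 and 80.1 CPM to 63.8, 64.1 and 65.0 CPM. Without Arg replicate B at 24 h 0 were called lower, and without Arg replicate B at 48 h 0 were called lower and 1 higher. Without Arg replicate A at 48 h 2 were called higher, and without replicate C of either time 1 was called lower. The shares of all genes in these fits are not given here, so their counts are not read against the background. The median log2 fold change of the 45 members was 0.027 without and 0.025 with Arg.

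**Figure D5:**
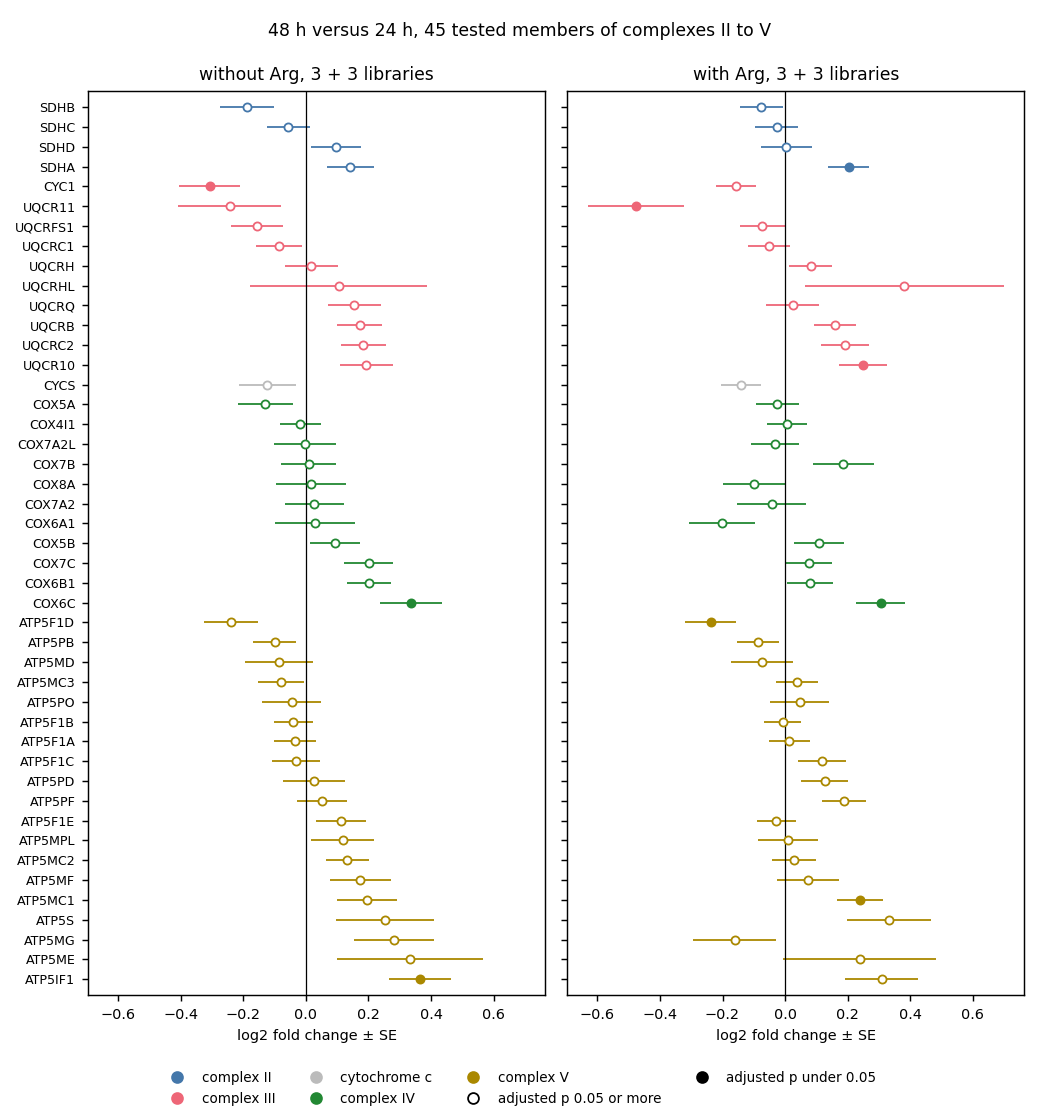
Log2 fold change with its standard error (edgeR) of 48 h versus 24 h for the 45 tested members without Arg (left) and with Arg (right), in the order of complex and of the value without Arg; filled points passed an adjusted p under 0.05. Points lie on both sides of 0, with COX6C, ATP5IF1, and CYC1 filled on the left and COX6C, UQCR10, ATP5MC1, SDHA, UQCR11, and ATP5F1D on the right.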

How the data were processed

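Poly(A) RNA of TIGK cells was sequenced as paired-end reads in 12 libraries, 3 for each of 4 groups, which were taken from the labels. The raw counts were made by the authors with fastp, STAR (GRCh38/hg38), and featureCounts, and were deposited without normalization. Tool versions, the annotation release, and the strand setting are not given in the sources used here. All 12 columns of counts were used, and the libraries held 16542243 to 19040964 counts.

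All genes were tested with edgeR 4.0.16 in R 4.3.3 (TMM, filterByExpr, quasi-likelihood test) in fits of 2 groups, and the interaction over 12 libraries. Benjamini–Hochberg adjustment was over all genes tested, and "called" means an adjusted p under 0.05. CPM and CPM per kb of the deposited exonic length were computed from the counts. SE is the absolute log2 fold change divided by the root of F. With 3 libraries against 3, an exact permutation test cannot go below a p of 0.1. Named members are, in complexes III to V, the 3 with the smallest p at each time, all of complex II, CYCS, members called in the time comparisons, those with the smallest interaction p, and paralogs. Others were named after their values were seen. The members and lists were chosen with earlier results of these data known. The scripts were tested on simulated data. Alternatives included DESeq2 1.42.0, other scalings and filters, a replicate block, a length correction (lowess, span 0.3), and leaving out each library.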

Additional observations from a re-analysis of the deposited data

How the results depend on the processing

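The counts of called members depend on the settings more than their direction does. At 24 h, 3 members were called lower (3.84% of all genes), against 5 with DESeq2 (4.64% of the genes it adjusted), with the replicate block (3.82%), and with the length correction (4.29%), and 6 without the filter on low counts (2.86%), which also called 1 higher (2.09%). With each library left out in turn, 2 to 12 were called lower and 0 to 1 higher, and the 12 came without control replicate B (6.02% of all genes). At 48 h, 0 were called, against 6 lower with DESeq2 (1.17% of the genes it adjusted) and with the replicate block (0.968%), 4 lower and 1 higher with the length correction and the block together (0.680% and 0.165%), and 10 lower and 1 higher without the filter (1.37% and 0.730%). With each library left out, 0 to 19 were called lower and 0 to 2 higher, and all of these came without control replicate B (8.17% and 7.76% of all genes). For time without Arg, 1 was called lower and 2 higher (19.9% of all genes in either direction). Library size only gave 0 and 6. The replicate block gave 2 and 5 (14.4% and 13.6% of all genes), also with the length correction (14.9% and 11.9%). The length correction without the block gave 0 lower (11.0%), and the single model of 12 libraries 2 lower (12.4%). Leaving out a library gave 0 to 2 lower and 0 to 2 higher. For time with Arg, 2 were called lower and 4 higher (14.0% and 14.3% of all genes). The length correction gave 1 lower (13.6%), the length correction with the block 0 lower (12.3%), and library size only 1 and 9. Leaving out a library gave 0 to 3 lower and 1 to 5 higher. The interaction gave 0 under every alternative run. For library size only, and for most fits that left out a library, the share of all genes is not given here. Those counts of members are not read against the background.

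The paired fit with the replicate block rests on the letters A, B, and C alone. The correlations of same-lettered deviations lay between −0.061 and 0.13 in 12 pairs of libraries, 1 of them over 0.1. Of the 12 libraries, 3 correlated best with their own letter. Weak correlations among so few libraries cannot settle whether the letters pair them, and this was not tested further. Members near 0 changed sign. At 48 h, SDHB was at 0.013 with the length correction and 0.015 with the block added, and SDHD at 0.0055 and 0.0010. With libraries left out singly, the values at 24 h lay between −0.11 and 0.016 for ATP5F1E, −0.32 and 0.062 for ATP5MG, −0.15 and 0.062 for COX6C, −0.087 and 0.090 for CYCS, −0.0098 and 0.11 for SDHD, and −0.039 and 0.074 for UQCR10. At 48 h they lay between −0.027 and 0.029 for CYCS, −0.069 and 0.0082 for SDHA, −0.11 and 0.010 for SDHB, and −0.11 and 0.055 for SDHD. The cause was not tested. The depth leaves ATP5ME and UQCRHL, with under 11 CPM in every library, the least precise.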
